A study of Mus musculus with 78 samples.

Results

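The response described here is that of tissue-engineered cartilage to interleukin 1 beta (IL-1β) after 12 h. Murine chondrocytes derived from induced pluripotent stem cells, grown as cartilage constructs, were given 1 ng/mL IL-1β for 12 h or were left untreated for the same time. The comparison takes 6 of the 39 mRNA libraries of the series (78 libraries with the small RNA libraries included): the 3 libraries whose column in the mRNA count table names IL-1β at 12 h, and the 3 untreated libraries of 12 h, called control a, b and c and IL-1β a, b and c after the letters in their names. For comparison, the untreated and IL-1β-treated libraries of 4 h, 24 h and 72 h and the libraries given 20 ng/mL tumour necrosis factor alpha (TNF-α) for 12 h were used, 3 libraries a group. The labels give no genotype, strain or donor that differs between the groups, and all groups are labelled as the same tissue. They do not say whether the 3 libraries of a group came from separate cultures. The p-values rest on the spread between libraries within groups, over all groups of the fit, and this spread may be technical.

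IL-1β binds the receptor IL1R1 with its partner IL1RAP and, through the adaptor MYD88, sets free NF-κB and activates MAP kinases and AP-1. In cartilage it is the textbook catabolic cytokine: chondrocytes exposed to it secrete collagenases, aggrecanases, prostaglandins and nitric oxide, and make less type II collagen and aggrecan. Cartilage has no vessels, and chondrocytes depend on glycolysis and on hypoxia-inducible factors (HIF). NRF2, encoded by Nfe2l2, is the transcription factor that raises glutathione synthesis and other antioxidant genes after oxidant stress.

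Depth was lower in the treated libraries: 17055200 to 21292700 reads counted on named genes in the controls and 11163300 to 15726700 in the IL-1β libraries. After a low-count filter, 18857 genes were tested with edgeR's quasi-likelihood test, and a call means an adjusted p (Benjamini-Hochberg over all genes tested) under 0.05. Mitochondrially encoded genes took 0.237 to 0.351% of the counts in controls and 0.384 to 0.424% in IL-1β libraries, and their part in the results was not tested. Chondrocyte markers were strongly present, with a summed level of 109200 to 131200 CPM (read counts scaled to the library's effective size) in controls and 68300 to 100700 CPM with IL-1β. Most of this sum was Col2a1, at 82490 to 100300 CPM in controls and 44770 to 70050 CPM with IL-1β. Of 11 tested chondrocyte markers 5 fell and 1 rose. Of 9 pluripotency genes none passed the filter, and 3 had no count in any of the 6 libraries. Whole constructs were lysed, so that fewer cells of a type and less RNA per cell cannot be told apart.

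At 12 h IL-1β changed 29.6% of the genes tested, raising 2737 (14.5%) and lowering 2836 (15%), against 32.7% changed at 4 h and 32.6% at 24 h. Of these, 740 (3.92%) rose and 574 (3.04%) fell by more than 2-fold, and 227 rose and 105 fell by more than 4-fold. Beyond 8-fold the response was lopsided, with 87 genes higher and 23 lower, and beyond 16-fold 38 were higher and 3 lower. The median log2 fold change over all genes was -0.02, and the middle 90% of genes lay between -0.94 and 1.03. The 3 control and 3 treated values did not overlap for 7372 genes (39.1%). In the plot of tested members by gene list, NRF2 targets, NF-κB and IκB genes and neutrophil-attracting chemokines lie mostly above 0, and HIF targets and glycolytic enzymes mostly below.

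**Figure D1:**
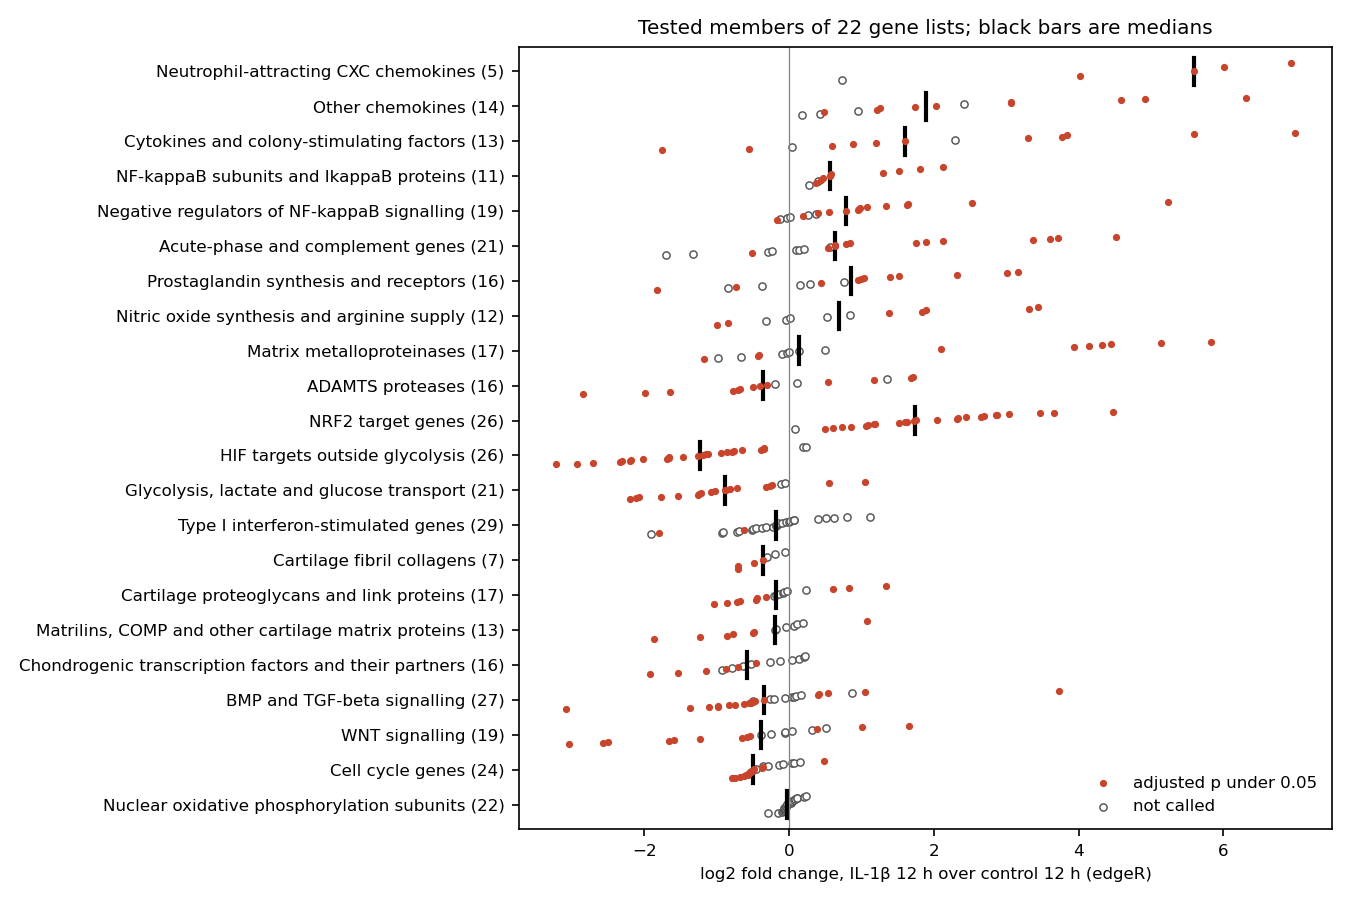
Log2 fold change at 12 h, IL-1β against control (horizontal axis), for the tested members of 22 gene lists (rows). Each dot is a gene, filled where the adjusted p was under 0.05, and the black bar is the list's median. NRF2 targets lie to the right of 0 (median 1.74), HIF targets (median -1.23) and glycolysis genes (median -0.89) to the left.

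Of the IL-1 receptor pair, Il1r1 was not called and Il1rap rose, while the rise of a related receptor was far larger. Of 8 tested IL-1 family ligands and receptors 3 rose and 1 fell (median 0.32). Il1r1, the signalling receptor, was at 84.9, 84.4 and 81.6 CPM in controls a, b and c and at 93.8, 88.2 and 70.3 CPM in IL-1β a, b and c. These values overlap, with a log2 fold change of 0.01 ± 0.09 (SE, adjusted p = 0.971). Its effect at 4 h was larger, at 0.81 (difference -0.80, adjusted p = 4.4e-05). Il1rap, its partner, rose 1.55-fold, from 49.2 ± 4.13 CPM to 76.2 ± 3.69 CPM (SD, n = 3, groups apart, edgeR adjusted p = 1.2e-06). Il1rn, the natural receptor antagonist, rose 2.57-fold, from 18.6 to 23.3 CPM to 52.1 to 54.2 CPM. Il1rl1, the receptor for IL-33, had 6.21, 3.86 and 3.78 CPM in controls and 244, 237 and 163 CPM with IL-1β, a 45.6-fold rise (log2 5.51 ± 0.22, adjusted p = 1.5e-20). Its treated values were all far above every control, and the rise was larger than at 24 h by 3.15 on the log2 scale (adjusted p = 8.8e-09). The genes of the ligands, Il1a and Il1b, were under the count filter.

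Of the 11 NF-κB subunits and IκB proteins, 9 rose and none fell (median 0.57), and 13 of 19 tested negative regulators of the pathway rose against 1 that fell (median 0.78). Nfkbia encodes IκBα, which holds NF-κB in the cytoplasm. It was at 33.4, 38.4 and 42.5 CPM in controls and at 175, 165 and 159 CPM with IL-1β, 4.36-fold higher (log2 2.13 ± 0.09, adjusted p = 3.1e-19). All 3 treated libraries lay above all controls. The non-canonical subunit genes rose as well, Nfkb2 by 1.29 ± 0.10 and Relb, from 24.9 to 28.1 CPM to 75.2 to 78.9 CPM, by 1.52 ± 0.09 on the log2 scale. The rise was smaller for Nfkb1 (0.47 ± 0.06) and for Rela, the main activating subunit (0.37 ± 0.09). Rel missed the threshold, at 0.40 ± 0.16 (adjusted p = 0.053), although its 3 treated values lay above its controls. Among the brakes, Tnfaip3, which encodes the ubiquitin-editing enzyme A20, rose 3.13-fold, and Zc3h12a, whose product Regnase-1 degrades cytokine mRNAs, rose 3.10-fold, from 13.0 to 13.4 CPM to 39.3 to 43.1 CPM.

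Promoters were drawn for the 2 called members of smallest p that had one, in each of 5 gene lists. The 4 from the NF-κB and IκB list and the CXC chemokine list, the latter described next, are printed. All 4 hold an NF-κB motif, searched as GGG, any 2 bases and TTTCC. The sequences are the 250 bases before the annotated start site from RefSeq (mouse build GRCm38.p6). They are read 5′ to 3′ on the gene's own strand, with matches on either strand in capitals. Nfkbia lies at chr12:55492648-55492897 on the minus strand, and Nfkb2 at chr19:46304487-46304736, Cxcl1 at chr5:90890995-90891244 and Cxcl2 at chr5:90903649-90903898 on the plus strand. The motif occurred in 382 of 27025 promoters of this length (1.41%), in 3 of the 8 promoters found for the 11 NF-κB and IκB genes and in 3 of the 4 found for the 5 tested CXC chemokine genes. In Nfkbia it starts 29 bases before the start site and in Nfkb2 11 bases before it. Cxcl1 holds it 89 and 71 bases and Cxcl2 97 and 78 bases before the start site. A match describes the letters and is not a measured binding site.
Nfkbia: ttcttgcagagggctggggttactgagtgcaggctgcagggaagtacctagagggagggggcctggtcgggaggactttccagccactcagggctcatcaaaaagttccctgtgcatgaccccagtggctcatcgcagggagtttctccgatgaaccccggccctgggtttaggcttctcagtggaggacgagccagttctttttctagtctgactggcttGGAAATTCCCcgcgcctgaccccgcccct
Nfkb2: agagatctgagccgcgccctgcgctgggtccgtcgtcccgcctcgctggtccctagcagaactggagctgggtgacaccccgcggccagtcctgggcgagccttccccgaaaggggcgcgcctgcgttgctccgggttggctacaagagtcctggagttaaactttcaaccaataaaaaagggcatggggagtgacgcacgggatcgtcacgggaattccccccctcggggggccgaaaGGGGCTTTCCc
Cxcl1: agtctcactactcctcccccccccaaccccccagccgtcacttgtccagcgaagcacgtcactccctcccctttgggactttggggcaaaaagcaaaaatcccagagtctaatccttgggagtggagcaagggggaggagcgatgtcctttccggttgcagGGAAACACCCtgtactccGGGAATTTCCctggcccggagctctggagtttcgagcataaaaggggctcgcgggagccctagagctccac
Cxcl2: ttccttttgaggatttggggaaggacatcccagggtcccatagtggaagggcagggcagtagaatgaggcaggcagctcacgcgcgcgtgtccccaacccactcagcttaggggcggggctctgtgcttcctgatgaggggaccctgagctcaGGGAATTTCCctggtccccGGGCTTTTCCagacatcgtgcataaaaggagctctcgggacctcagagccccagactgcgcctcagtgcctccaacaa

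Chemokine and cytokine genes were among the largest rises. Of the 7 listed neutrophil-attracting CXC chemokines 5 were tested and 4 rose (median 5.59), and 10 of 14 tested other chemokines rose with none lower (median 1.89). With any 1 of the 6 libraries left out, 7 to 9 of these other chemokines rose. Cxcl1 was at 9.71, 10.8 and 12.3 CPM in controls and at 930, 686 and 494 CPM with IL-1β, a 64.6-fold rise (log2 6.01 ± 0.20, adjusted p = 4e-23). Cxcl2 rose from 0.301 to 0.478 CPM to 24.6, 19.7 and 10.4 CPM, with a log2 fold change of 5.59 ± 0.33. Library IL-1β c was the lowest of the treated libraries for both genes, yet stood above every control. Cxcl5 rose 16.2-fold, from 63.4 to 76.6 CPM to 788 to 1317 CPM. Ccl2, which attracts monocytes, was at 15.6, 14.5 and 16.9 CPM in controls and at 640, 453 and 325 CPM with IL-1β (log2 4.91 ± 0.21), again lowest in IL-1β c. For Cxcl3 the 3 control libraries held 3 counts in all against 305 in the treated ones, a ratio of 134 with a 95% counting interval of 45.4 to 653 that covers counting error only. Without control c, which held most of the control reads, the fitted log2 fold change of Cxcl3 went from 6.93 to 7.86.

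Among the 13 tested cytokines and colony-stimulating factors 9 rose and 2 fell (median 1.61). Il6, the gene of the acute-phase cytokine IL-6, was at 2.15, 1.93 and 1.71 CPM in controls and at 124, 93.2 and 66.6 CPM with IL-1β, 48.4-fold higher (log2 5.60 ± 0.23, adjusted p = 4.2e-20). Csf1, the macrophage growth factor, rose from 30.1 to 31.5 CPM to 277 to 337 CPM, a log2 fold change of 3.31 ± 0.12 that exceeded those at 4 h (2.06) and 24 h (1.35), with adjusted p of 1.4e-06 and 3.5e-10 for the differences. Lif, another IL-6 family cytokine, rose by 3.83 ± 0.27, which was less than at 4 h (difference -1.78, adjusted p = 0.0016). Il11 rose at 12 h, from 9.85, 10.9 and 11.1 CPM to 33.2, 29.8 and 33.9 CPM (1.61 ± 0.19), while its log2 fold change was 0.08 at 4 h (adjusted p = 0.77) and -0.70 at 24 h (adjusted p = 0.02). The differences of the 12 h effect from both were called, with adjusted p of 6.9e-05 and 1.7e-06. Tnfsf11, which encodes the osteoclast factor RANKL, rose 2.31-fold, and Tnfrsf11b, encoding its decoy receptor osteoprotegerin, was 1.46-fold lower.

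**Figure D2:**
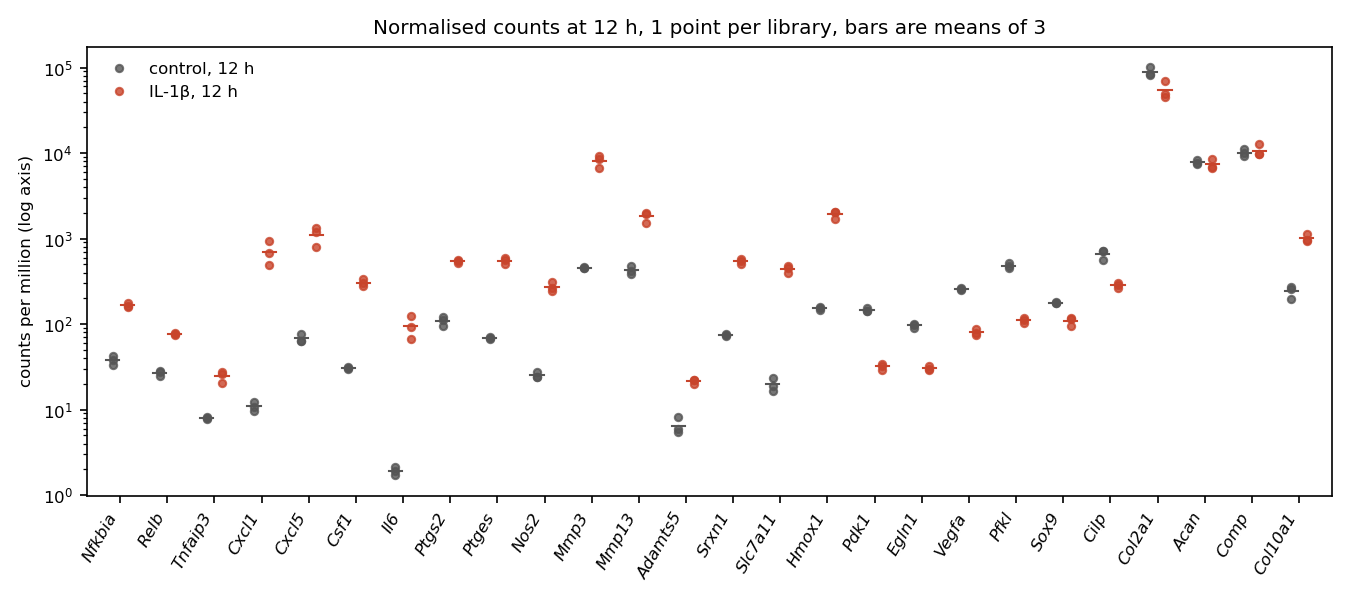
Level of 26 genes in each of the 6 libraries of 12 h (CPM, log axis), with 3 control and 3 IL-1β points a gene and bars at the group means. The chemokine, cytokine, protease and NRF2 target genes shown are higher in all 3 IL-1β libraries, and the HIF target and glycolysis genes are lower in all 3.

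The inducible enzymes of prostaglandin and nitric oxide synthesis, Ptgs2, Ptges and Nos2, rose. Of 16 prostaglandin pathway genes 9 rose and 2 fell (median 0.86). Ptgs2, the inducible cyclooxygenase COX-2, was at 120, 112 and 94.2 CPM in controls and at 562, 543 and 521 CPM with IL-1β (log2 2.31 ± 0.15, adjusted p = 1.7e-14). Ptges, the synthase that makes prostaglandin E from its product, rose 8.04-fold, from 67.4 to 69.9 CPM to 499 to 592 CPM. Hpgd, whose enzyme breaks prostaglandin E down, was 3.55-fold lower, at 18.6 to 21.8 CPM in controls and 4.05 to 7.18 CPM with IL-1β. Ptgs2 showed a smaller effect at 24 h (0.69), and the difference of 1.62 was called (adjusted p = 1.1e-06), whereas for Ptges the difference of 0.38 missed the threshold (adjusted p = 0.055).

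Nos2, the inducible nitric oxide synthase, was at 24.2, 27.1 and 24.2 CPM in controls and at 267, 245 and 308 CPM with IL-1β. This 10.9-fold rise (log2 3.44 ± 0.22) was smaller than the rises at 4 h (5.55, adjusted p of the difference 2.6e-06) and 24 h (4.80, adjusted p 0.0026). Gch1, which makes the cofactor of the synthase, rose 3.70-fold, and Ass1, which regenerates its substrate arginine, rose 2.61-fold. Ass1 had not risen at 4 h (0.13, adjusted p = 0.26), and its 12 h effect was larger by 1.25 (adjusted p = 5.2e-09). Of 12 genes on the nitric oxide and arginine list 5 rose and 2 fell (median 0.69). Icam1, the leukocyte adhesion molecule, rose 6.71-fold, while Vcam1 was at 136 to 144 CPM in controls and 135 to 169 CPM with IL-1β (log2 0.08 ± 0.15, adjusted p = 0.736).

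Acute-phase and innate defence genes rose in 12 of 21 tested, with 1 lower (median 0.63). C3, the central complement component, was at 392, 386 and 363 CPM in controls and at 1532, 1308 and 1416 CPM with IL-1β (log2 1.90 ± 0.15). Saa3, a serum amyloid A gene, rose from 20.8 to 34.7 CPM to 218 to 483 CPM (3.72 ± 0.36). Chil1, which encodes the cartilage glycoprotein YKL-40, rose from 1280 to 1438 CPM to 3944 to 4845 CPM (1.75 ± 0.19). These 3 genes had larger effects at 24 h: the 12 h effect minus that at 24 h was -1.09 for C3, -1.67 for Saa3 and -1.02 for Chil1, with adjusted p of 0.00034, 0.019 and 0.01. Over the list, 11 of the 21 genes had a 12 h effect below the 24 h effect and none above it, where 4.34% of all genes were above and 4.83% below. Tlr2, a receptor for bacterial lipopeptides, rose 6.49-fold, and 8 of 15 pattern recognition receptor genes rose with none lower.

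Several matrix-degrading enzymes rose. Of 20 listed matrix metalloproteinases 17 were tested, of which 7 rose and 3 fell (median 0.14). Mmp3, stromelysin 1, was at 449, 451 and 468 CPM in controls and at 9106, 8543 and 6630 CPM with IL-1β, a 17.8-fold rise (log2 4.15 ± 0.14, adjusted p = 1.9e-22). Mmp13, the main collagenase acting on type II collagen, was at 478, 415 and 387 CPM in controls and at 1952, 1985 and 1539 CPM with IL-1β (2.10 ± 0.14, adjusted p = 3.7e-14). In both genes all treated libraries lay above all controls, with IL-1β c the lowest of the 3. Both effects were larger at 24 h: the 12 h effect minus that at 24 h was -0.72 for Mmp3 and -1.06 for Mmp13 (adjusted p = 0.0059 and 0.00024). Mmp9, Mmp12 and Mmp10 started from 0.143 to 1.87 CPM and rose 56.7-fold, 20.1-fold and 15.4-fold. By contrast the gelatinase gene Mmp2 had a log2 fold change of -0.03 ± 0.10 and the membrane-bound Mmp14 one of 0.00 ± 0.10, with adjusted p of 0.885 and 0.998.

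The ADAMTS proteases split, with 4 of 16 higher and 9 lower (median -0.35). Adamts5, the main aggrecanase of mouse cartilage, was at 8.13, 5.85 and 5.49 CPM in controls and at 22.4, 22.3 and 20.1 CPM with IL-1β, 3.29-fold higher (adjusted p = 2.1e-09). Adamts4, the other aggrecanase gene, was at 20.1 to 23.9 CPM in controls and 26.4 to 37.5 CPM with IL-1β (log2 0.53 ± 0.20, adjusted p = 0.036), a smaller rise than at 4 h (1.60, adjusted p of the difference 0.0052). Adamts1 changed sides between time points. It had risen by 1.64 at 4 h and was 1.41-fold lower at 12 h, at 174 to 195 CPM in controls and 119 to 143 CPM with IL-1β, a difference of -2.14 (adjusted p = 2.3e-11). Adamts15 was 7.15-fold lower, from 1.77 to 3.13 CPM to 0.25 to 0.58 CPM. Timp1, an inhibitor of metalloproteinases, rose 3.38-fold, while Timp3, which also inhibits the aggrecanases, was 1.30-fold lower at 983 to 1404 CPM against 1414 to 1527 CPM (adjusted p = 0.025).

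Matrix genes fell by smaller folds than Mmp3 and Mmp13 rose, and not all of them had fallen by 12 h. Of 7 cartilage fibril collagens 4 were lower and none higher (median -0.36), and 2 were lower when control c, IL-1β a or IL-1β b was left out. Col2a1, the gene of type II collagen, was at 82490, 83650 and 100300 CPM in controls and at 48510, 44770 and 70050 CPM with IL-1β. The groups did not overlap, and the fall was 1.63-fold (log2 -0.71 ± 0.17, adjusted p = 0.0012). Col11a1 and Col11a2, which form the same heterotypic fibrils, were 1.28-fold and 1.39-fold lower. Both calls depend on single libraries. Without control c, Col11a1 had a log2 fold change of -0.30 (adjusted p = 0.076) and Col11a2 one of -0.35 (adjusted p = 0.185), and the values without IL-1β a or b missed the threshold too. Without control b the Col11a2 call was also lost (adjusted p = 0.063).

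Acan, the gene of aggrecan, the main cartilage proteoglycan, was not called at 12 h. It was at 7515, 7575 and 8192 CPM in controls and at 6893, 6716 and 8562 CPM with IL-1β, which overlap (log2 -0.07 ± 0.13, adjusted p = 0.749). At 24 h its log2 fold change was -1.92, and the 12 h effect differed from it by 1.84 (adjusted p = 1.8e-08). Comp, encoding cartilage oligomeric matrix protein, followed the same order, with 0.08 ± 0.12 at 12 h and -0.77 at 24 h (difference 0.85, adjusted p = 0.0012). Matn3 did too, with 0.19 ± 0.16 at 12 h and -2.24 at 24 h (difference 2.44, adjusted p = 4e-09). Over the whole list of 13 matrilins, COMP and other cartilage matrix proteins, 6 fell and 1 rose at 12 h (median -0.20), and the effect was less negative than at 24 h for 6 of the 13 and more negative for none.

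Some matrix genes had already moved at 12 h. Cilp, which encodes an intermediate-layer protein that binds TGF-β, was at 556, 718 and 716 CPM in controls and at 285, 265 and 302 CPM with IL-1β, 2.34-fold lower (adjusted p = 5.4e-10). Matn4 was 1.71-fold lower (adjusted p = 4.3e-06), and Vcan, the large proteoglycan of immature cartilage, 2.05-fold lower, from 1330 to 1671 CPM to 709 to 772 CPM. Hapln1, the link protein that ties aggrecan to hyaluronan, was 1.37-fold lower. Epyc, the small proteoglycan epiphycan, rose 2.53-fold, from 5.37 to 8.41 CPM to 16.1 to 17.7 CPM. Of 17 tested proteoglycans 3 rose and 7 fell (median -0.18).

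**Figure D3:**
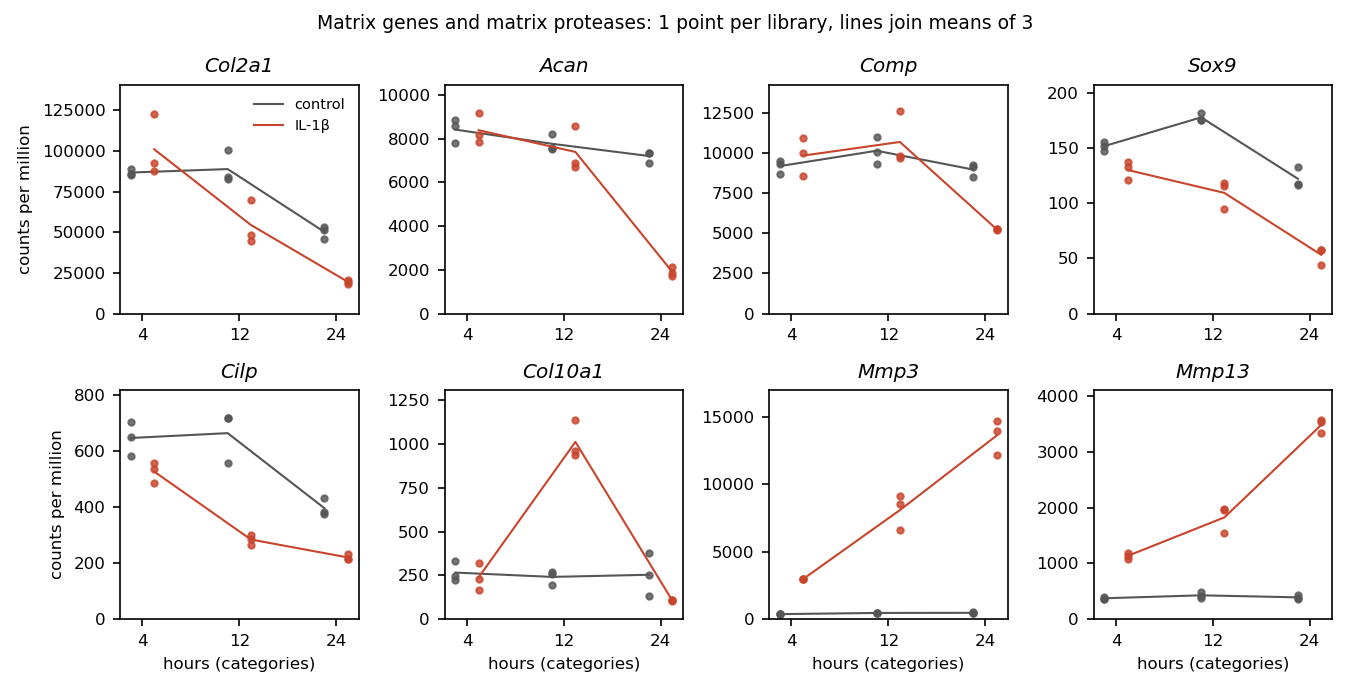
Level in each library (CPM, linear axes from 0) of 8 matrix, transcription factor and protease genes at 4, 12 and 24 h (evenly spaced categories), control and IL-1β, with lines through the means of 3 libraries. Acan and Comp overlap between control and IL-1β at 12 h and are lower with IL-1β at 24 h, Mmp3 and Mmp13 are higher at all 3 times, and Col10a1 is higher with IL-1β at 12 h only among these times.

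Of the chondrogenic transcription factors and their partners, 6 of 16 were lower and none higher by edgeR (median -0.58). At an unadjusted p under 0.05 there were 2 higher, and DESeq2 called 1 and scaling by library totals alone 2. Sox9, the master regulator of chondrocytes, was at 176, 176 and 182 CPM in controls and at 116, 94.4 and 118 CPM with IL-1β, 1.63-fold lower (adjusted p = 6.3e-07). Its partner Sox6 was 1.82-fold lower and Nkx3-2, which holds back chondrocyte maturation, 3.77-fold lower, from 5.12 to 5.97 CPM to 0.874 to 1.89 CPM. Wwp2, a ubiquitin ligase gene and SOX9 target that hosts a cartilage microRNA, fell from 1374 to 1484 CPM to 595 to 704 CPM (log2 -1.15 ± 0.09). Erg, a factor of articular cartilage, was 2.19-fold lower, at 171 to 189 CPM against 81.8 to 84.6 CPM. Runx2, which drives hypertrophy, was at 24.8 to 29.4 CPM in controls and 25.4 to 33.6 CPM with IL-1β (adjusted p = 0.417).

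Of 15 tested hypertrophy and mineralization genes 4 rose and 5 fell (median -0.03). Col10a1, the collagen of hypertrophic chondrocytes, was at 194, 260 and 269 CPM in controls and at 936, 962 and 1137 CPM with IL-1β, a 4.20-fold rise (log2 2.07 ± 0.35, adjusted p = 1.6e-05). The groups were well apart at 12 h, while at 4 h the log2 fold change was -0.16 (adjusted p = 0.76) and at 24 h -1.24 (adjusted p = 0.0054). The differences of the 12 h effect from these were 2.23 and 3.31 (adjusted p = 0.0016 and 1.4e-05). Ibsp, the bone sialoprotein gene, rose 3.83-fold at 12 h, from 3.56 to 5.06 CPM to 13.8 to 19.6 CPM, and was at -0.12 on the log2 scale at 24 h (adjusted p of the difference 0.0014). Matn1, a matrilin of growth plate cartilage, rose 2.12-fold, but without IL-1β c the call was lost (log2 0.96, adjusted p = 0.057).

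Growth factor pathway genes were called lower more often than higher. Of 27 tested BMP and TGF-β pathway genes 13 fell and 5 rose (median -0.35), and of 19 WNT pathway genes 9 fell and 3 rose (median -0.38). Without control b, 1 WNT gene rose. Gdf10, the gene of BMP3B, was at 51.5, 40.6 and 43.1 CPM in controls and at 3.51, 6.06 and 5.87 CPM with IL-1β, 8.57-fold lower (log2 -3.10 ± 0.19, adjusted p = 2e-15). Chrdl2, a BMP antagonist, fell from 21.0 to 28.4 CPM to at most 4.05 CPM, 8.46-fold lower. The ligand Bmp2 rose 2.08-fold. Tgfb3, a chondrogenic TGF-β ligand, was 1.97-fold lower. Among WNT genes, the receptor gene Lgr5 was 5.96-fold lower, from 21.6 to 27.7 CPM to 2.68 to 5.77 CPM, and the secreted antagonist Sfrp1 5.68-fold lower. Frzb, an antagonist linked to osteoarthritis, was 1.57-fold lower, less than at 24 h (difference 2.13, adjusted p = 5.2e-10).

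NRF2 targets rose in 25 of 26 genes, with a median log2 fold change of 1.74. None fell by edgeR, by DESeq2 or at an unadjusted p under 0.05. Srxn1, which encodes sulfiredoxin and repairs oxidized peroxiredoxins, was at 72.0, 76.1 and 74.7 CPM in controls and at 577, 545 and 504 CPM with IL-1β (log2 2.87 ± 0.08, adjusted p = 3.3e-25). Slc7a11, the cystine importer that feeds glutathione synthesis, was at 23.4, 19.1 and 16.5 CPM in controls and at 473, 448 and 397 CPM with IL-1β, a 22.2-fold rise. Hmox1, haem oxygenase 1, was at 153, 146 and 157 CPM in controls and at 2029, 1706 and 2044 CPM with IL-1β, a 12.7-fold rise. In these 3 genes every treated library was several times any control. Gclc and Gclm, the subunits of the enzyme that limits glutathione synthesis, rose 6.47-fold and 6.28-fold, and Txnrd1, thioredoxin reductase 1, 4.98-fold. Nqo1, a quinone reductase, rose 2.13-fold. Me1, malic enzyme 1, was the member not called, at 91.5 to 101 CPM in controls and 101 to 103 CPM with IL-1β (adjusted p = 0.453).

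The rise was larger at 12 h than at 4 h or 24 h. Hmox1 had a log2 fold change of 0.68 at 4 h and 0.99 at 24 h against 3.66 ± 0.11 at 12 h, with mean IL-1β levels of 212, 1926 and 243 CPM and mean control levels of 133, 152 and 122 CPM at the 3 times. The differences were 2.99 and 2.67 on the log2 scale (adjusted p = 2.7e-16 and 4.3e-15). Nqo1 was at -0.11 at 4 h and -0.07 at 24 h, neither called, against 1.09 ± 0.11 at 12 h. Over the list, 23 of 26 genes had a larger effect at 12 h than at 4 h and none a smaller one, where 6.34% of all genes were above and 6.24% below. Against 24 h, 16 were larger and 1 smaller. The list's median was 0.38 at 4 h, 1.74 at 12 h and 0.70 at 24 h, beside all-gene medians of -0.03, -0.02 and -0.01. The regulators moved less: of 7, 5 rose (median 0.32), with Nfe2l2 at 0.78 and Keap1, whose product targets NRF2 for degradation, at -0.16 ± 0.07 (adjusted p = 0.085).

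Srxn1 and Slc7a11 were the 2 promoters drawn from the NRF2 target list by the same rule. In both, the 250 bases before the start hold an antioxidant response element. It was searched in the forms TGACNNNGC and TGAGNNNGC on both strands, and matches are in capitals. Srxn1 lies at chr2:152105274-152105523 on the plus strand and Slc7a11 at chr3:50443614-50443863 on the minus strand (GRCm38.p6, RefSeq). Srxn1 holds the G form 158 and 45 bases before the start site, and Slc7a11 holds it 97 bases before. The nearer match in Srxn1 shares its first bases with an AP-1 motif (TGANTCA). The C form occurred in 2720 (10.1%) and the G form in 3852 (14.3%) of 27025 promoters. Of 19 promoters found for the 26 tested NRF2 targets, 4 held the C form and 4 the G form.
Srxn1: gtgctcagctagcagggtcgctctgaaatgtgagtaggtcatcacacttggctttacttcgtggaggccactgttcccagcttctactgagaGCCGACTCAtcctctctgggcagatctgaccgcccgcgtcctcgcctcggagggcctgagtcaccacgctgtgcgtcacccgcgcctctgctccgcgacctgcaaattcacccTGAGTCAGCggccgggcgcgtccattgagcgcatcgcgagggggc
Slc7a11: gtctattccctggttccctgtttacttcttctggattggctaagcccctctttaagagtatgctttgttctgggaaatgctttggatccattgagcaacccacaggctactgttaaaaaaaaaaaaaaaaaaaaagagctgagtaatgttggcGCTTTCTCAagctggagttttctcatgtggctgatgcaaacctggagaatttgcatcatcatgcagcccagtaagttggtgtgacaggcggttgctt

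HIF targets moved the opposite way. Of 26 tested HIF targets outside glycolysis 24 were lower and none higher by edgeR, with a median log2 fold change of -1.23. DESeq2 also called none higher, 1 was higher at an unadjusted p under 0.05, and 1 was called higher with library totals alone or without IL-1β b. Pdk1, a pyruvate dehydrogenase kinase gene, was at 144, 143 and 153 CPM in controls and at 32.6, 29.2 and 34.2 CPM with IL-1β, 4.59-fold lower (log2 -2.20 ± 0.08, adjusted p = 4.2e-21). Vegfa, the vessel growth factor, was at 252, 266 and 257 CPM in controls and at 78.9, 74.9 and 87.1 CPM with IL-1β, 3.22-fold lower. Egln1 and Egln3, whose hydroxylases mark HIF for degradation, were 3.16-fold and 4.96-fold lower. Bnip3, a gene of mitochondrial autophagy, was 4.53-fold lower and Car9, carbonic anhydrase 9, 3.14-fold lower. The treated and control values of these 6 genes did not overlap. Car12 and Egfl7 were the 2 members not called.

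Glycolysis genes fell with them, 17 of 21 lower and 2 higher (median -0.89). Pfkl, the liver form of phosphofructokinase, was at 475, 449 and 518 CPM in controls and at 104, 110 and 119 CPM with IL-1β, 4.33-fold lower (adjusted p = 2.8e-20). Slc16a3, the lactate exporter MCT4, fell from 390 to 406 CPM to 86.6 to 102 CPM, 4.20-fold. Ldha, lactate dehydrogenase A, was 2.33-fold lower and Gapdh 2.38-fold lower. Both have many processed pseudogenes, so that their counts could be split between copies. The 2 members that rose were Slc16a1, the transporter MCT1, by 2.07-fold, and Pfkfb4. Of 8 HIF subunit and regulator genes 3 rose and 2 fell. Hif1a rose 1.33-fold, from 475 to 555 CPM to 665 to 723 CPM, and Epas1, encoding HIF-2α, 3.11-fold. Hif3a, encoding HIF-3α, was 2.16-fold lower, at 6.52 to 6.84 CPM in controls and 2.97 to 3.26 CPM with IL-1β.

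The fall against the control of the same time was deepest at 12 h among the first 3 times. Pdk1 had a log2 fold change of -0.29 at 4 h and -0.96 at 24 h, which differed from the 12 h effect by -1.91 and -1.24 (adjusted p = 1.2e-14 and 8.9e-10). Its mean control level was 107 CPM at 4 h, 147 CPM at 12 h and 154 CPM at 24 h, so the controls also differed between times. Vegfa controls were at 252 to 266 CPM at 12 h and 117 to 139 CPM at 24 h. Its IL-1β libraries were at 74.9 to 87.1 CPM at 12 h and 65.6 to 73.1 CPM at 24 h, so its treated level was not lowest at 12 h. Egln3 was at 0.00 at 4 h (adjusted p = 0.99). Over the lists, 21 of 26 HIF targets and 18 of 21 glycolysis genes had a more negative effect at 12 h than at 4 h, and 14 and 13 than at 24 h. In the opposite direction there was none against 4 h and 1 in each list against 24 h. The HIF target median went from -0.21 at 4 h to -1.23 at 12 h and -0.91 at 24 h, and had turned to 0.46 by 72 h.

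**Figure D4:**
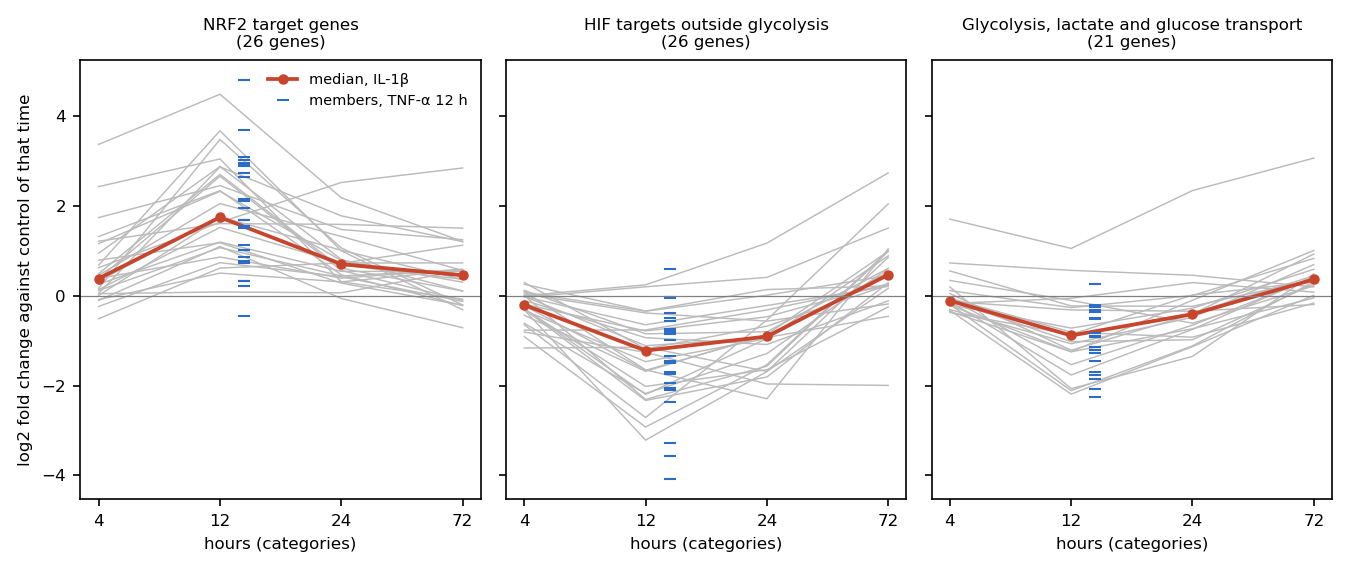
Log2 fold change of IL-1β against control at 4, 12, 24 and 72 h for the tested members of the NRF2 target, HIF target and glycolysis lists. Grey lines are genes, the red line is the list's median, and blue dashes beside 12 h are the same genes with TNF-α. The NRF2 median peaks at 12 h (1.74), and the HIF median is lowest there (-1.23).

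Pdk1 and Egln1 were the 2 promoters drawn from the HIF target list, and Egln1 is printed because it holds the core motif ACGTG. That motif occurred in 4424 of 27025 promoters (16.4%) and in 10 of the 20 found for the 26 tested HIF targets. Egln1 lies at chr8:124949255-124949504 on the minus strand (GRCm38.p6, RefSeq), with the motif, in capitals, 68 bases before the start site. Pdk1 holds no match in its 250 bases.
Egln1: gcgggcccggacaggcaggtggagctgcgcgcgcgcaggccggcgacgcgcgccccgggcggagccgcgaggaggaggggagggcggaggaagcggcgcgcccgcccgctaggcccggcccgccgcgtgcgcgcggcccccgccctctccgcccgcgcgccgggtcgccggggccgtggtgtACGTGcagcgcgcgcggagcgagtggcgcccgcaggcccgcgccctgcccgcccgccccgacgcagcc

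The effect at 12 h differed from that at 4 h for 2372 genes (12.6% of those tested), 1196 above and 1176 below. With library totals alone in place of TMM scaling, the median of this difference over all genes moved from 0.00 to 0.13, and 2221 genes were above and 597 below. From 24 h the effect differed for 1729 genes (9.17%), 818 above and 911 below. The largest positive differences from 4 h included Hmox1 and Gsta4, the latter a glutathione transferase whose copies share sequence (3.31). Adh7, an alcohol and retinol dehydrogenase, was above by 3.37 and Tarm1, a myeloid receptor, by 3.70. The largest negative ones included Slc26a9, an anion transporter (-5.25, and -6.62 without control a of 4 h), and Il19 (-3.07). That of Nlrp3, the inflammasome sensor (-3.53), lost its call without control a of 12 h (-2.87, adjusted p = 0.171). Against 24 h the largest positive difference was that of Aspn, the small proteoglycan asporin (3.53), and the largest negative one that of Olfm4 (-3.72). Without IL-1β c, the difference for Olfm4 was -4.62 and its 12 h log2 fold change went from -1.72 to -2.62, and without control a that of Nlrp3 from 4.36 to 5.03. The 12 h rise of Aspn was lost without control c (log2 0.52, adjusted p = 0.113) and without IL-1β a or b.

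Cell cycle genes were lower in 14 of 24 and higher in 1 (median -0.49). With any 1 of the 6 libraries left out, 10 to 12 were lower. Mki67, the proliferation marker, fell from 16.7 to 21.2 CPM to 11.4 to 11.9 CPM (adjusted p = 0.0024). Of 13 cyclin-dependent kinase inhibitors and p53 targets 9 rose and 3 fell (median 0.58). Mdm2, a p53 target and its inhibitor, was at 126, 125 and 120 CPM in controls and at 283, 254 and 252 CPM with IL-1β, 2.13-fold higher, and Cdkn1a, the inhibitor p21, rose 1.73-fold. Gdf15, a stress cytokine, rose 3.36-fold. In 7 of the 13 genes the effect was above that at 4 h and in 1 below. For Mdm2 the differences were 0.76 from 4 h and 0.77 from 24 h (adjusted p = 1.1e-06 and 1.3e-06).

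The 12 h controls are the same 3 libraries for IL-1β and TNF-α, so the 2 sets of calls are not independent. TNF-α raised 14.6% and lowered 13.8% of the genes tested. IL-1β and TNF-α libraries compared directly differed in 1995 genes (10.6%), with 887 (4.7%) higher and 1108 (5.88%) lower in IL-1β. The NRF2, HIF and glycolysis lists had similar medians with TNF-α, at 1.69, -1.40 and -0.91. Still, 11 of 26 NRF2 targets were higher and 4 lower with IL-1β than with TNF-α. Hmox1 was higher with IL-1β by 0.66 ± 0.10 and Txnrd1 lower by 0.59 (log2 -0.59 ± 0.07), while Pdk1 differed by -0.10 ± 0.09 (adjusted p = 0.55). Col2a1, Acan and the transcription factor gene Sox9 differed by -0.13 ± 0.17, 0.02 ± 0.13 and 0.03 ± 0.10, none called.

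Cytokine and acute-phase genes separated the 2 treatments. Il6 had a mean of 7.29 CPM with TNF-α and 66.6 to 124 CPM with IL-1β, a log2 difference of 3.69 ± 0.19 (adjusted p = 8.8e-16). Cxcl1 was higher with IL-1β by 2.34 ± 0.16 and Cxcl5 by 2.37 ± 0.20, while Csf1 was lower by 1.40 (log2 -1.40 ± 0.11). Zc3h12a had a log2 fold change of -0.05 with TNF-α (adjusted p = 0.85) and 1.63 with IL-1β, a difference of 1.68 ± 0.14 (adjusted p = 7e-11). Of 21 acute-phase genes 10 were higher and 2 lower in IL-1β, among them Chil1 (1.99 ± 0.20) and C3 (1.32 ± 0.15). Saa1 and Saa2, near-identical copies whose reads could be split between them, were higher by 3.89 and 5.28. Without TNF-α library a these were 5.09 and 5.92, and without IL-1β a Saa2 was at 4.69. Of 14 other chemokines 1 was higher and 8 lower.

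**Figure D5:**
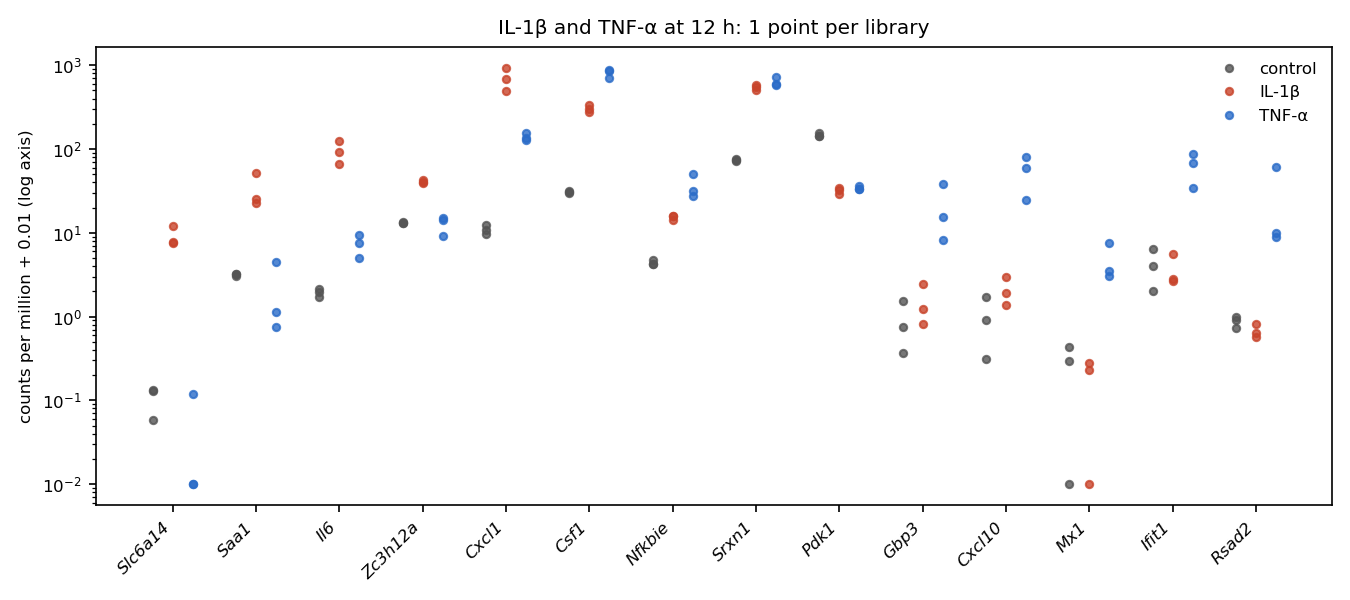
Level of 14 genes in each library of 12 h (CPM + 0.01, log axis): 3 control, 3 IL-1β and 3 TNF-α libraries, 1 point each. Il6, Saa1 and Slc6a14 are higher than in any TNF-α library, and the interferon-stimulated genes shown are high with TNF-α and near the controls with IL-1β.

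Interferon-stimulated genes also differed between the treatments. At 12 h none of 29 rose with IL-1β by edgeR or DESeq2, 1 was higher at an unadjusted p under 0.05, and 2 fell (median -0.18). Fitted on the 6 control and IL-1β libraries of 12 h alone, 2 rose and 6 fell. IL-1β raised 11 of the 29 at 4 h (median 1.125) and 12 at 24 h (median 1.093), where 15.5% and 17% of all genes rose. Replicates were far apart at those times. Rsad2 with IL-1β was at 2.12, 28.1 and 6.82 CPM at 4 h and at 16.9, 0.698 and 2.49 CPM at 24 h. For none of the 29 was the 12 h effect called different from that at 4 h or 24 h. With TNF-α at 12 h 24 rose, and 28 were lower in IL-1β than in TNF-α. Rsad2, the antiviral enzyme viperin, was at 0.717, 0.904 and 0.975 CPM in controls, at 0.631, 0.562 and 0.797 CPM with IL-1β and at 61.2, 9.85 and 8.79 CPM with TNF-α (log2 -5.33 ± 1.05 for IL-1β against TNF-α, adjusted p = 0.00052). Without TNF-α library a, which was far above the other two, the difference was -3.81 (adjusted p = 0.018). Ifit1 was at 2.01 to 6.45 CPM in controls and 2.61 to 5.62 CPM with IL-1β. The 2 that fell, Ifit2 (-0.62) and Ifit3 (-1.79), lost the call when control a was left out (adjusted p = 0.137 and 0.098) and when any one IL-1β library was left out. Ifit2 also lost it without control c (adjusted p = 0.054). Of 16 interferon regulatory factors and GTPases 5 rose with IL-1β, among them Irf1 (2.04-fold) and Gbp2 (5.85-fold, a gene with close copies), and 12 were lower than with TNF-α.

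Among markers of other cell types, of 12 macrophage markers 6 were tested and 1 rose, Cd14 (log2 fold change 1.05). The other tested markers were not called, and the median log2 fold change of the 6 was -0.11. The summed level of the 12 was 38.3 to 39.8 CPM in controls and 54.7 to 59.0 CPM with IL-1β. Of 10 neutrophil markers 2 were tested and both rose, from a sum of 0.813 to 1.99 CPM to 8.34 to 19.2 CPM, while the defining marker Ly6g had no count in the 6 libraries. S100a8, one of the 2, was at 0.0956 to 0.241 CPM in controls and 0.942 to 3.06 CPM with IL-1β. Most counts of the endothelial markers were those of Erg, also described above in cartilage. The endothelial sum was 173.6 to 191 CPM in controls and 84.1 to 87.6 CPM with IL-1β. Of the 10 listed, 1 (Cldn5) had no count in the 6 libraries, and of the 4 tested 1 was higher and 1 lower. Without control a, control b or IL-1β c none was higher. Fibroblast and tendon markers summed to 32040 to 38450 CPM in controls and 25630 to 27590 CPM with IL-1β, with 7 of 12 lower and none higher by edgeR, by DESeq2 or at an unadjusted p under 0.05. Without control c, 3 of them were lower. Osteoblast markers summed to 6519 to 8349 CPM in controls and 4829 to 6212 CPM with IL-1β, with 1 of 6 tested higher and 2 lower. Adipocyte markers summed to 369.8 to 393 CPM and 444.8 to 613 CPM, with 1 of 10 higher and 2 lower. Of 4 tested muscle markers 1 was higher and 2 lower, of 7 neuron and glia markers 2 were higher, and of 4 epithelium markers 1 was lower. The part of these cell types in the results was not tested.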

How the data were processed

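RNA from whole constructs was sequenced on an Illumina HiSeq instrument after ribosomal RNA removal, per the labels' protocols. The deposited values are raw read counts per gene that the authors made. Per the submitters' processing notes the tools were cutadapt, Trimmomatic, featureCounts and STAR and the build mm10. Their versions are not stated in those notes. The 52459 named genes were used, and 2199 lines with no gene name were left out. Of 39 mRNA libraries 38 entered 1 fit, since the untreated 0 h library b held 220180 counts and did not resemble the others. Genes passing edgeR's filterByExpr (18857, holding 99.9% of the counts) were scaled by TMM and fitted with edgeR 4.0.16 (glmQLFit, glmQLFTest, R 4.3.3), 1 mean a group, with Benjamini-Hochberg adjustment over all genes tested. Differences between times and treatments were contrasts of this fit. CPM uses TMM-scaled library sizes. The common biological coefficient of variation was 8.26%. The fit was also run on simulated counts that had the same spread for every gene, unlike these data, so that run checks only the code. Alternatives were DESeq2 1.42.0, other scalings, no filter, other sets of libraries, a replicate block and leaving out each library.

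The libraries were grouped by their labels. Genes named were taken from 3 sets, and not every member is described. The first was the 15 called genes of largest log2 fold change in each direction of the main comparison (mean CPM of at least 1, groups not overlapping). The others were the 6 called members of smallest p in each of 56 gene lists, with other members for contrast, and the 8 of largest difference in each direction of the other comparisons. The largest changes of the first set, not described above, were Csf3 (127-fold higher, from a mean of 0.21 CPM to 26.8 CPM) and Cldn2 (11.3-fold lower, from 3.64 CPM to 0.33 CPM). Unnamed gene models and pseudogenes were passed over. The members and lists were chosen with earlier results of these data known. Promoters came from RefSeq (GRCm38.p6), matched by symbol, the lowest coordinate where a gene had several. Cilp and Matn4, drawn from the list of matrilins, COMP and other cartilage matrix proteins, held no match to any motif searched and are not printed. The labels do not say what the replicate letters mean, and the libraries were not paired by them. The correlations of same-letter deviations over all genes at 12 h, between control and IL-1β, were -0.05, 0.02 and 0.00. Such values cannot show a pairing with a small effect or one on few genes. Replicates of a group differed by more than sampling noise.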

Additional observations from a re-analysis of the deposited data

Results flagged for a closer look

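The effect of IL-1β at 12 h differed from that at 4 h for 2372 genes and from that at 24 h for 1729 genes, by the test of the difference in edgeR's quasi-likelihood fit. The values below are the 12 h log2 effect minus the other, for the 8 largest called differences in each direction.

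Above 4 h were Tarm1 (3.70), Adh7 (3.37), Gsta4 (3.31), Hmox1 (2.99), Gsta3 (2.81), Heph (2.54), Trdc (2.50) and Ptgr1 (2.50). These include glutathione transferases, haem oxygenase 1, the copper-containing ferroxidase hephaestin and prostaglandin reductase 1. The 12 h effect of Gsta3, whose copies share sequence, went from 2.86 to 3.51, and its difference from 2.81 to 3.45, without control b of 12 h. Below 4 h were Cxcl10 (-5.25), Slc26a9 (-5.25), Tnfsf8 (-3.98), Nlrp3 (-3.53), Il19 (-3.07), Serpinb2 (-3.02), Mgarp (-2.90) and Smtnl2 (-2.77). Without control a of 12 h, Cxcl10 (-4.50, adjusted p = 0.25), Nlrp3 (-2.87, adjusted p = 0.171) and Serpinb2 (-2.37, adjusted p = 0.358) lost the call. Cxcl10 lost it for 7 of the 12 libraries when left out in turn, with a difference between -6.02 and -4.49 over the 12, and Serpinb2 also for 7. Slc26a9 went to -6.62 without control a of 4 h, and Tnfsf8 to -5.10 without IL-1β b of 12 h. The 12 h effect of Serpinb2 went from 3.54 to 4.21 and that of Nlrp3 from 4.36 to 5.03 without control a. Hmox1, a target of NRF2, and Mgarp, a target of HIF, belong to lists that moved furthest at 12 h among the first 3 times.

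Above 24 h were Aspn (3.53), Col10a1 (3.31), Il1rl1 (3.15), Nrep (3.04), Dclk3 (3.0), Omd (2.86), Cldn11 (2.81) and Padi2 (2.76). Not all of these rose at 12 h, where the log2 fold change was -0.31 for Dclk3, -0.09 for Omd and -0.53 for Padi2. It was 5.51 for Il1rl1, 2.52 for Cldn11, 2.07 for Col10a1, 0.60 for Aspn and 0.42 for Nrep. Aspn and Omd encode small leucine-rich proteoglycans and Col10a1 the collagen of hypertrophic cartilage. The 12 h call of Aspn was lost without control c, IL-1β a or IL-1β b (adjusted p from 0.073 to 0.133). Below 24 h were Olfm4 (-3.72), Ahsg (-3.34), Il19 (-3.02), Saa4 (-2.73), Fmo1 (-2.64), Adamts15 (-2.42), Vnn3 (-2.38) and Kcnj8 (-2.37). The 12 h log2 fold change was -1.72 for Olfm4, -2.50 for Ahsg, -2.84 for Adamts15 and -2.94 for Kcnj8. It was 0.14 for Saa4, 0.13 for Fmo1, 0.93 for Il19 and 2.68 for Vnn3. Ahsg, the gene of fetuin A, and Saa4, a serum amyloid A gene, are expressed chiefly in liver. Without IL-1β c the difference for Olfm4 was -4.62 and its 12 h effect went from -1.72 to -2.62, and without IL-1β b Adamts15 lost the call (-2.16, adjusted p = 0.055).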

How the results depend on the processing

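Depth and the spread of 3 libraries a group limit what could be called. Control 0 h b stood apart in more than depth: its median correlation with the other libraries was 0.187, and Col2a1 took 0.0045% of its counts. With it added (all 39 libraries in the fit), calls fell to 2722 for the main comparison (1496 higher, 1226 lower), 556 for the difference from 4 h (346 and 210), 408 for that from 24 h (229 and 179) and 639 for IL-1β against TNF-α (271 and 368). With library totals alone the difference from 4 h gave 2221 higher and 597 lower. Fitted on its own 6 libraries alone, the main comparison gave 4785 genes (2448 higher, 2337 lower). Fitted on the IL-1β and TNF-α libraries alone, their contrast gave 908 genes (414 and 494). Leaving out 1 library gave 4712 to 5058 genes in the main comparison, 1829 to 2287 for the difference from 4 h, 1384 to 1681 for that from 24 h and 1486 to 1933 for IL-1β against TNF-α. The replicate block, by the letters in the library names, gave 5504 genes in the main comparison, and DESeq2 5428. Of 284 genes named in the main comparison that were called, 260 stayed called in every setting except that of all 39 libraries, where 69 lost the call, and none turned direction.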

Other observations

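Among genes of the immediate early and MAP kinase response, 8 of 18 AP-1 and immediate early genes rose at 12 h and 2 fell (median log2 fold change 0.28), with 5 higher when control a or IL-1β a was left out. Fosl1, an AP-1 subunit, rose by 1.54 and Dusp6, an ERK phosphatase, by 1.57 on the log2 scale. Of 11 MAP kinase phosphatase genes 6 rose and 2 fell. Hyaluronan genes rose in 3 of 10, among them Cd44, the hyaluronan receptor (1.24), and Cemip, which degrades hyaluronan (1.24).

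Endoplasmic reticulum chaperones rose in 10 of 18 and fell in 4 (median 0.21), with 1 lower when scaled by library totals alone and none lower without IL-1β a. Hspa5, the chaperone BiP, rose from 835 to 857 CPM to 1137 to 1249 CPM (log2 0.48 ± 0.06, adjusted p = 3e-08), while Ddit3, which encodes the stress factor CHOP, was at 27.7 to 34.0 CPM in controls and 22.4 to 31.4 CPM with IL-1β (adjusted p = 0.055). Clock genes fell in 8 of 16 and rose in 1 (median -0.26). Dbp, a direct clock output, was at 73.4, 79.5 and 96.1 CPM in controls and at 43.1, 40.6 and 48.5 CPM with IL-1β (log2 -0.91 ± 0.10), and the one that rose was Npas2 (1.12 ± 0.20). Dbp had a log2 fold change of -0.84 at 4 h and -0.03 at 24 h, and the difference of the 12 h effect from the latter was -0.88 (adjusted p = 3.7e-05). None of 22 nuclear oxidative phosphorylation genes was called by edgeR or DESeq2 (1 higher and 2 lower at an unadjusted p under 0.05).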
